A study of Apis mellifera with 20 samples.

Results

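The comparison described here set m6A enrichment in queen larvae of honeybee (Apis mellifera) instar 3 (L3) against that in worker larvae of the same instar. Its members are 8 of the 20 libraries of the series, chosen by their labels: 2 m6A pulldown libraries (IP) and 2 input libraries from each caste. Enrichment is the IP minus input difference of log2(FPKM + 1) of a gene, where FPKM counts fragments per length of the gene model and per mapped fragments of the library. The caste difference is enrichment in queens minus enrichment in workers. L3 queens and L3 workers are larvae from colonies kept by common beekeeping practice, with no treatment and no genetic change named in the labels. The 4 libraries of instar 1 (L1), larvae from which either caste can still develop, entered the fit as a further estimate of the spread, so the fit held 12 libraries in 6 groups. The labels do not say how many larvae went into a library or whether replicates came from separate colonies. P-values therefore measure the spread between these libraries, which may be technical.

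N6-methyladenosine (m6A) is a methyl mark that a nuclear methyltransferase complex places on adenosines inside messenger RNA. Reader proteins that bind the mark are known to affect splicing, translation and decay of the marked RNA. Queens and workers hatch from alike eggs and part ways in response to the larval diet, with royal jelly fed throughout to queens. In an m6A pulldown, fragmented messenger RNA is captured with an antibody against the mark, and transcripts that carry more of it are recovered in excess over the input. Here 1 value was given per gene model, so that enrichment is that of a whole gene, and single sites cannot be seen. No pulldown without the m6A antibody was analysed here, and enrichment does not measure the share of transcripts that carry the mark.

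The deposited tables list 15314 gene models by IDs that start with GB, and 0 of these were found among the 12398 genes that RefSeq annotates on assembly Amel_HAv3.1. Genes are therefore given by ID, without names or functions, and with the scaffold positions of the tables, whose genome build is not given in the sources used here. For the same reason no gene sequence is shown, and the labelled tissue could not be checked against marker genes. The summed FPKM was 641484 to 662785 in the L3 input libraries and 756987 to 891050 in the L3 IP libraries, and read depth is unknown. The model GB43330 (GroupUn98, 15844 to 16065, plus strand) held 9.71% to 12.4% of the summed FPKM in input and 36.0% to 47.7% in IP. Libraries were therefore divided by median-of-ratios factors, which were 0.893 to 1.31 in queens and 0.655 to 0.796 in workers. Worker libraries listed more models at exactly 0 than queen libraries did, with 3535 and 3822 against 3184 and 3296 in input and 3437 and 3667 against 2433 and 2626 in IP. A value of 0 can be a failed estimate, so such genes are described as listed at 0. The L1 and L3 FPKM values below are scaled by the factors of the 12 L1 and L3 libraries. Values of instar 5 (L5) are scaled by factors from the 8 L5 libraries alone.

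Most genes enriched or depleted in 1 caste were called so in the other. In queens 2891 genes (28.4%) were enriched and 3114 (30.6%) depleted in IP, together 59.1% of the 10167 genes tested by limma at an adjusted p under 0.05. In workers 2897 (28.5%) were enriched and 3353 (33%) depleted, together 61.5%. Both castes shared 2619 enriched and 2884 depleted genes. Opposite calls were made for 3 genes, of which 2 were enriched in queens and depleted in workers and 1 was the reverse. In queens alone 270 genes were enriched and 229 depleted, and in workers alone 277 were enriched and 467 depleted. The caste difference in enrichment, given below, was called for 1 of the 270, 1 of the 467 and 0 of the 229 and the 277. A further 3418 genes passed in neither caste.

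Across the 10167 genes, enrichment in queens and in workers correlated at r = 0.959, with a slope of 1.01 for workers on queens. The points share the scaling but no library, and genes are not independent replicates. Between single pairs of libraries, made from the IP and input of the same number, r was 0.950 within queens, 0.933 within workers and 0.928 to 0.934 between the castes. Pairs from different castes were thus nearly as alike as the 2 worker pairs. The standard deviation over genes was 1.05 for enrichment in queens, 1.11 for enrichment in workers and 0.31 for the caste difference, in log2 units. Its central values from the 5th to the 95th percentile ran from -0.41 to 0.47, with a median of 0.03.

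**Figure D1:**
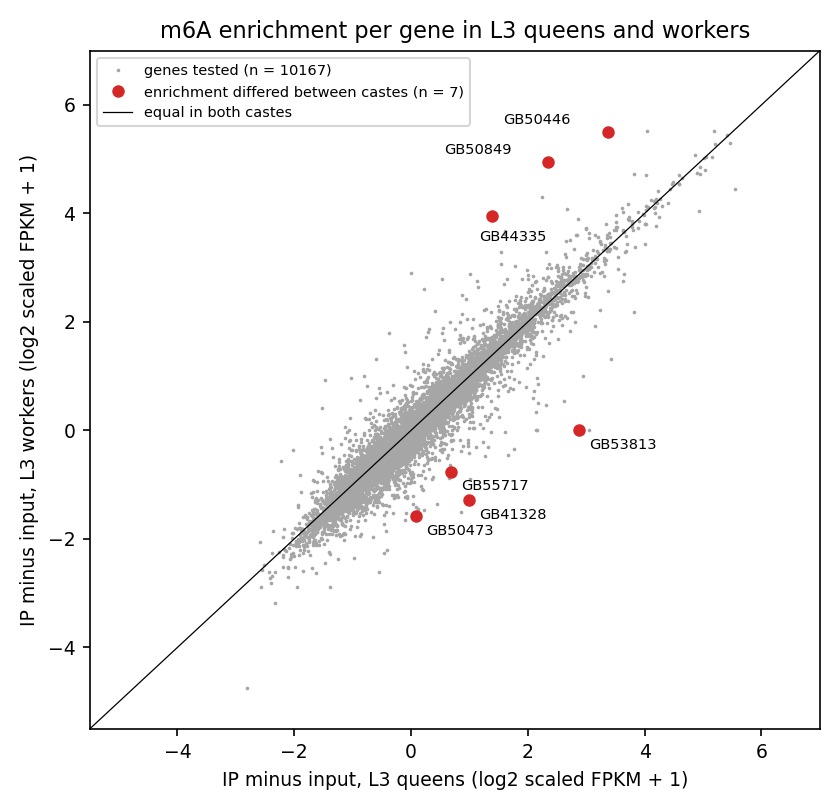
Enrichment of each of the 10167 genes in L3 queens (horizontal axis) and L3 workers (vertical axis), as the IP minus input difference of log2(scaled FPKM + 1) over 2 libraries per group. Most genes lie close to the line of equal enrichment, and the 7 genes whose enrichment differed at a limma adjusted p under 0.05 are drawn in red with their IDs.

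The caste difference in enrichment passed limma at an adjusted p under 0.05 for 7 of 10167 genes (0.0689%), 4 higher (0.0393%) and 3 lower (0.0295%) in queens. All 7 differed by at least 2-fold. At an unadjusted p under 0.05 there were 310 genes (3.05%), 188 higher (1.85%) and 122 lower (1.2%). In the same fit 2613 genes (25.7%) differed between the castes in input, 1250 higher (12.3%) and 1363 lower (13.4%) in queens. In IP 2595 genes (25.5%) differed, 1378 higher (13.6%) and 1217 lower (12%).

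IP and input libraries of the same number varied together across genes, though weakly in L3 workers (r = 0.152, against 0.640 in L3 queens). The fit was therefore repeated with the kind of larva and the number as a block. With this block 11 genes (0.108%) passed, 4 higher (0.0393%) and 7 lower (0.0689%), and 5 of the 7 genes were among them. With all 20 libraries, whose spread includes that of the instar 5 (L5) libraries, 0 of 10391 genes passed in limma and 100 had an unadjusted p under 0.05. The count fell to 3 without L3 queen IP replicate 2, without L3 queen input replicate 2 or without L3 worker input replicate 1.

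Of the 7 genes, 4 rest on a group listed at 0 in both of its libraries, and 3 were above 0 in all 8 L3 libraries. Only 122 of the genes tested (1.20%) had such a group. When the 9775 genes above 0 in all 8 libraries were fitted alone, an alternative chosen after seeing the data that also removes genes listed at 0 in 1 caste, 2 genes passed, GB55717 and GB50473. The second of these was near 0 in queens, as described with its values, so GB55717 is the one of the pair with a level in both castes.

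GB55717 (Group6.38, 701641 to 702345, plus strand) was the most abundant gene whose enrichment differed. It had 69.9 and 70.2 FPKM in queen input and 112 and 115 in queen IP. In workers it had 362 and 324 FPKM in input and 199 and 205 in IP. IP lay above input in both queen pairs and below it in both worker pairs, with no overlap. The log2 IP minus input difference was 0.67 and 0.70 in the queen pairs and -0.86 and -0.66 in the worker pairs. The caste difference was 1.45 ± 0.13 (SE, 2 libraries in each of the 4 groups, limma adjusted p = 0.00571), with a 95% interval of 1.16 to 1.73. The call remained in every fit that left out 1 library. It was lost with FPKM as deposited (limma adjusted p = 0.0817), with quantile normalization (0.0748) and with all 20 libraries (0.440).

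In L1 larvae GB55717 had 25.7 and 25.9 FPKM in input and 132 in both IP libraries. Its enrichment was thus 2.32 log2 units at L1, falling to 0.69 in queens of L3 and to -0.76 in workers of L3, and its input was higher in that same order. At L5 its input was 2461 and 3187 FPKM in queens and 2006 and 3111 in workers, and IP lay below input in both castes. As L5 was scaled apart, these levels are not on the scale of L1 and L3. The model next to it on the same strand, GB55716 (701037 to 701490), had 15.0 and 16.1 FPKM in queen input and 43.9 and 36.6 in queen IP. In workers it had 60.8 and 48.0 FPKM in input and 44.9 and 41.8 in IP. Its caste difference was 1.62 ± 0.23 (SE, limma adjusted p = 0.0677), and it passed with the block (0.0210). It was chosen after its values were seen. Whether reads are shared between these neighbours was not tested.

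GB41328 (Group5.18, 65181 to 65384, plus strand), a model of 204 bases, was the other gene enriched in queens and depleted in workers. It had 1.46 and 2.06 FPKM in queen input, 4.73 and 4.16 in queen IP, 4.17 and 3.50 in worker input and 0.632 and 1.41 in worker IP. IP and input changed places between the castes, and the pairs did not overlap. The caste difference was 2.27 ± 0.29 (SE, limma adjusted p = 0.0395). Its size depends on the pseudocount, with 3.21 at 0.1, not called (limma adjusted p = 0.105), and 1.04 at 5, called (0.0136). It was not called with FPKM as deposited (limma adjusted p = 0.0641), with quantile normalization (0.0507) or with the 8 L3 libraries alone (0.127). The call was lost with the block (limma adjusted p = 0.120), and remained in 1 of the 12 fits that left out 1 library, that without L3 worker IP replicate 2.

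GB50473 (Group4.9, 907919 to 916990, plus strand, overlapping another model) was near 0 in queens, with at most 0.123 FPKM in all 4 libraries. In workers it had 9.31 and 8.57 FPKM in input and 2.50 and 2.16 in IP. The worker transcript was thus depleted in IP, by 1.58 log2 units, while there was almost none in queens to compare. It passed the filter on low values only through the worker libraries, and its queen enrichment of 0.08 is held near 0 by the pseudocount, so the caste difference restates the depletion in workers. That difference was 1.66 ± 0.22 (SE, limma adjusted p = 0.0395), lost with the block (0.0923) and in each of the 12 fits that left out 1 library. With a pseudocount of 0.1 it was also lost (limma adjusted p = 1.00).

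GB53813 (Group3.12, 217996 to 218377, minus strand) had 8.10 and 4.91 FPKM in the queen IP libraries and was listed at 0 in the 10 other L1 and L3 libraries. It passed the filter on low values only through the queen IP libraries, and with every input listed at 0 no ratio of IP to input can be formed. Its fitted difference of 2.87 ± 0.30 (SE, limma adjusted p = 0.00992) is thus its level in queen IP alone. It is counted among the 7, but its values do not measure a caste difference in enrichment. With a pseudocount of 0.1 its call was lost (limma adjusted p = 0.843), as it was without L3 queen input replicate 1 (0.0534), without L3 queen input replicate 2 (0.0854) and without L3 worker input replicate 1 (0.0667). Without either queen IP library it fell under the filter on low values. At L5 it had at most 0.974 FPKM in any library.

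The 3 genes with lower enrichment in queens had the same pattern. In each of them both worker input libraries were listed at 0, while queen input, L1 input and every IP library were above 5 FPKM. GB50849 (Group2.11, 1575238 to 1576521, plus strand) had 8.29 and 5.82 FPKM in queen input and 47.0 and 33.5 in queen IP, against 31.2 and 28.6 in worker IP. Its IP level did not pass between the castes (0.40 log2 units higher in queens, limma adjusted p = 0.155), and its caste difference in enrichment was -2.59 ± 0.27 (SE, limma adjusted p = 0.00992). Of the 12 libraries, leaving out L3 worker input replicate 1 ended the call (0.0667).

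GB44335 (Group7.22, 216848 to 219497, plus strand) had 10.1 and 11.4 FPKM in queen input, 30.4 and 29.0 in queen IP, and 11.5 and 18.2 in worker IP. Its IP level was 0.99 log2 units higher in queens (limma adjusted p = 0.00572). Its caste difference in enrichment was -2.57 ± 0.27 (SE, limma adjusted p = 0.00992). The call was lost without either queen IP library (0.0564 and 0.0956), without L3 queen input replicate 2 (0.0854) and without L3 worker input replicate 1 (0.0667). GB50446 (Group4.9, 13135 to 13316, plus strand), a model of 182 bases, had 5.54 and 6.68 FPKM in queen input, 72.0 and 72.4 in queen IP, and 44.5 and 43.9 in worker IP. Its IP level was 0.69 log2 units higher in queens (limma adjusted p = 0.00389). Its caste difference in enrichment was -2.13 ± 0.18 (SE, limma adjusted p = 0.00571), and that call remained in every fit that left out 1 library. Like GB50473, GB50446 falls outside the rule for named genes and is given because only 7 genes were called.

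For these 3 genes the size of the difference depends on the pseudocount. It was -5.73 for GB50849, -5.73 for GB44335 and -5.25 for GB50446 with a pseudocount of 0.1, and -0.90, -0.83 and -0.50 with a pseudocount of 5, where none of the 3 passed (limma adjusted p = 0.367, 0.429 and 0.569). In the same order, enrichment was 2.38, 1.72 and 3.03 log2 units at L1, close to the 2.35, 1.39 and 3.37 of queens. The fitted worker values were 4.95, 3.95 and 5.50. With both worker inputs listed at 0 these are levels in worker IP alone, and no ratio to input can be formed. Of the 65 genes tested that were listed at 0 in both worker inputs, 4 were called, and of the 41 listed at 0 in both queen inputs, 1 was, GB53813, which is in both sets. Whether these zeros are failed estimates was not tested.

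**Figure D2:**
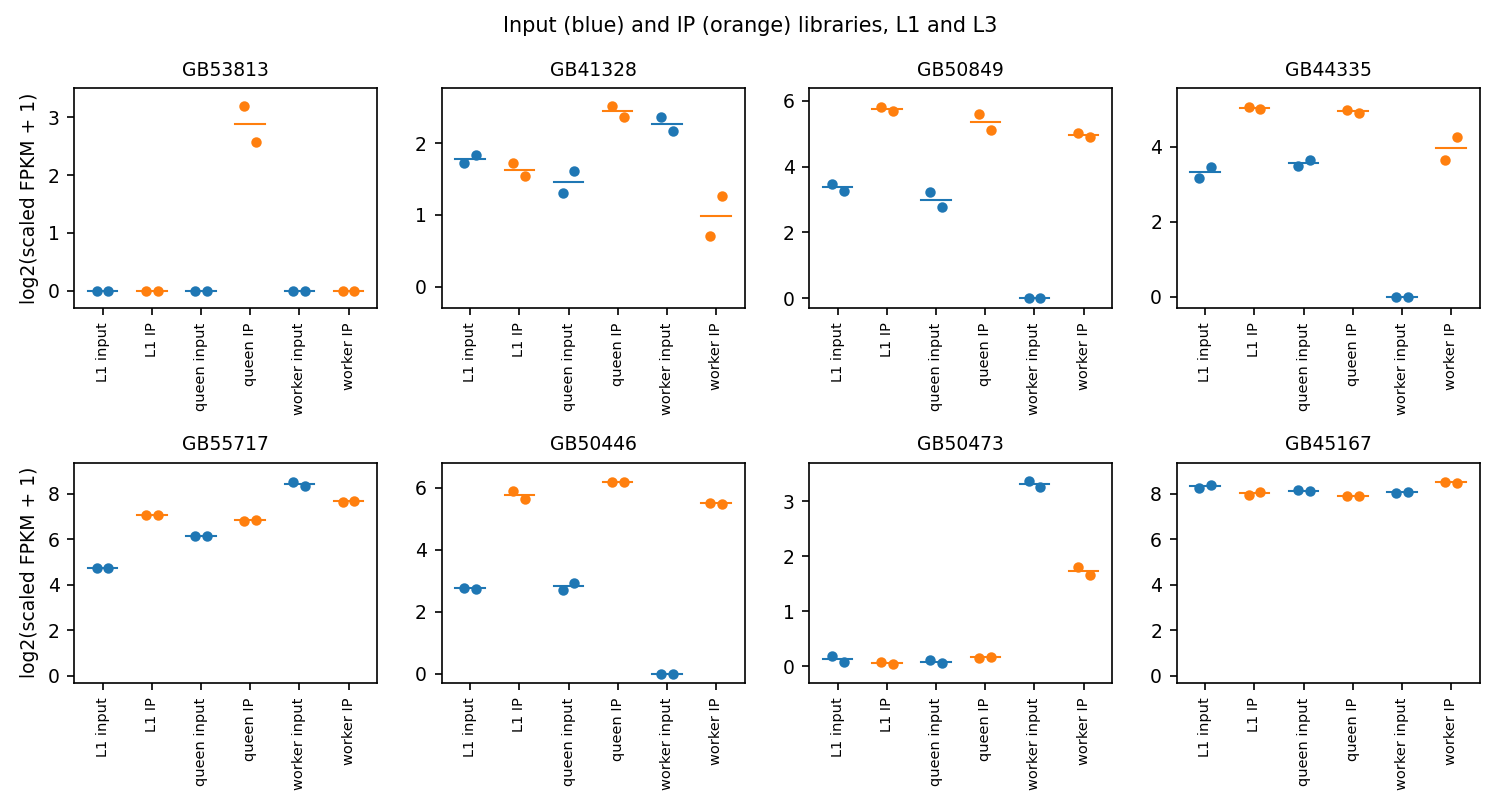
Level of the 7 genes called and of GB45167 in each L1 and L3 library, as log2(scaled FPKM + 1), with input in blue, IP in orange, 1 point per library and a line at the mean of each group. The worker inputs of GB50849, GB44335 and GB50446 are at 0, GB53813 is above 0 in queen IP only, and in GB55717 and GB41328 input and IP change places between queens and workers.

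With the block, 6 further genes passed, GB55716 among them. These 6 were chosen after their values were seen. With the number alone as the block, GB55716 passed (limma adjusted p = 0.0167) and the other 5 did not, at 0.146 for GB45167, 0.179 for GB50813, 0.434 for GB54979, 0.469 for GB47416 and 1.00 for GB40769. GB45167 (Group11.18, 2795237 to 2800377, plus strand) was the one gene depleted in queens and enriched in workers. Its input was alike in the 4 L3 input libraries, 285 and 279 FPKM in queens and 262 and 274 in workers. Its IP was 237 and 239 FPKM in queens and 365 and 357 in workers, without overlap. The caste difference was -0.67 ± 0.12 (SE, limma adjusted p = 0.247, and 0.0171 with the block), and L1 larvae, at -0.31, were close to queens at -0.24.

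GB50813 (Group2.11, 937739 to 966481, plus strand) had 11.7 and 9.20 FPKM in queen input and 16.1 and 17.0 in worker input, but 24.5 and 17.7 in queen IP against 89.3 and 97.1 in worker IP. Workers were above queens in both kinds of library, and further above in IP. Its caste difference was -1.48 ± 0.24 (SE, limma adjusted p = 0.136, and 0.00559 with the block). Its enrichment was 1.00 log2 units at L1, 0.94 in L3 queens and 2.42 in L3 workers.

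GB47416 (Group1.29, 550707 to 552862, minus strand, overlapping another model) was enriched in both castes, by 2.31 log2 units in queens and 3.29 in workers. It had nearly equal IP in the castes, 80.2 and 67.8 FPKM against 72.3 and 65.7, over a queen input of 15.8 and 12.5 and a worker input of 6.74 and 5.56. GB40769 (Group1.10, 258388 to 262558, minus strand) was enriched by 1.30 in queens and 1.91 in workers, at an input of 37.3 and 35.0 FPKM in queens and 323 and 319 in workers. GB54979 (Group1.41, 75936 to 76859, plus strand, overlapping another model) was depleted in both castes and listed at 0 in both worker IP libraries, with 1.15 and 1.47 FPKM in queen IP against inputs of 13.7 to 26.9 FPKM. The adjusted p with the block was 0.0254, 0.0210 and 0.00604 in limma, against 0.664, 1.00 and 0.424 without it.

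Genes whose abundance differed most between the castes had a difference of like size in the pulldown. GB54419 (Group15.9, 315521 to 316958, minus strand) was lower in queens, with a difference of -7.49 log2 units in input and -7.28 in IP. Its enrichment was -0.26 in queens and -0.47 in workers, a caste difference of 0.21 ± 0.59 (SE), with a 95% interval of -1.11 to 1.53. GB50662, on the minus strand of Group13.5 from 498272 to 504336, reached 9.75 and 2.74 FPKM in queen input and 4.92 and 1.79 in queen IP, against 1348 and 925 in worker input and 600.4 and 396 in worker IP. Both castes had less in IP than in input in every pair, and the caste difference was 0.55 ± 1.03 (SE).

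GB53623 (Group12.10, 101999 to 103006, plus strand) was 5.56 log2 units higher in queens in input and 5.07 in IP, and GB53621 (96926 to 97927, plus strand) 5.20 and 4.76. In input GB53623 had 583 and 295 FPKM in queens and 6.73 and 9.09 in workers, and in IP 357 and 193 against 5.72 and 8.22. Their caste differences in enrichment were -0.49 ± 0.50 and -0.43 ± 0.63 (SE). All 4 of these genes passed limma in input and in IP and had an adjusted p of 1.00 for enrichment. The 95% intervals span up to 2.88 log2 units from 0 in GB50662, so that these genes do not show equal enrichment.

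Over all genes, 1980 were called in the same direction in input and in IP, which is 75.8% of the 2613 input calls and 76.3% of the 2595 IP calls. They were 967 genes higher and 1013 lower in queens. Opposite calls were made for 1 gene, GB41328, lower in queens in input and higher in IP. The log2 differences in input and in IP correlated at r = 0.902 across genes. At least a 2-fold difference, whatever its p, was seen for 1011 genes in input (9.94%), 1036 in IP (10.2%) and 159 in enrichment (1.56%).

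**Figure D3:**
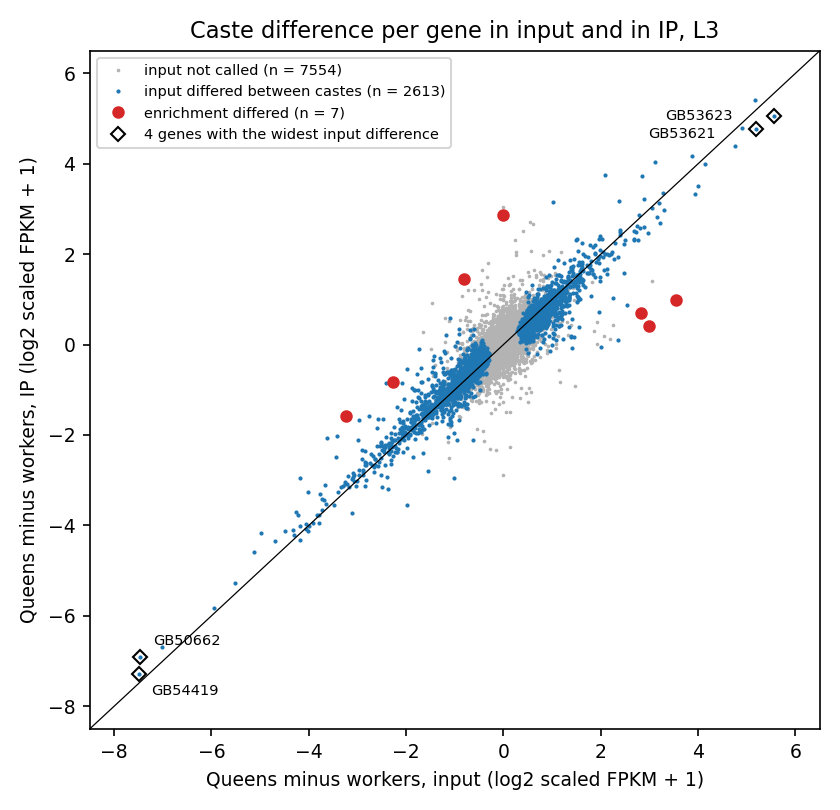
Difference between L3 queens and L3 workers of each gene in input (horizontal axis) and in IP (vertical axis), in log2(scaled FPKM + 1), with the 2613 genes called in input in blue, the 7 genes called for enrichment in red and the line of equal difference. GB54419, GB50662, GB53623 and GB53621, the genes with the widest input differences, lie close to the line.

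Among the 7 genes called for enrichment, the input of 6 was called between the castes in the opposite direction. The input enters the enrichment difference with the opposite sign, so the measures are not independent. Over the 1250 genes higher in queens in input, the median enrichment difference was -0.05, and over the 1363 lower in queens it was 0.10, beside 0.03 over all genes. In genes with an input difference of at least 2-fold, the medians were -0.13 (348 genes) and 0.12 (566 genes). Those genes, 914 of the 10167 tested, held 5 of the 7 called.

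The intervals, which are not adjusted for the number of genes tested, show how precise the difference of a single gene was. The 95% interval of the caste difference lay within a 2-fold change in either direction for 7266 genes (71.5%), and within a 1.5-fold change for 2667 (26.2%). In the median gene the interval reached 0.59 log2 units to either side. A difference of less than 2-fold in a single gene was thus often within the error.

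Precision and the size of the difference followed the input level. In the 2870 genes under 4 FPKM in L3 input, 4.04% differed by at least 2-fold, 4 were called, and the interval of the median gene reached 0.73 to either side. In the 3926 genes of 4 to 16 FPKM, 35 genes did and 2 were called, GB44335 and GB50473, and the interval reached 0.57. In the 2331 genes of 16 to 64 FPKM, 7 genes did and 0 were called, with 36 at an unadjusted p under 0.05 in limma, and the interval reached 0.49. In the 703 genes of the next class, from 64 FPKM up to 4 times that level, 1 gene did and was called, GB55717, and the interval reached 0.43. In the 337 genes of the highest class, above that level, 0 genes differed by 2-fold and 0 were called, with 2 at an unadjusted p under 0.05 in limma, and the interval reached 0.39. Of the 159 genes with at least a 2-fold difference, 116 were in the lowest class.

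The most abundant genes were depleted in the pulldown in both castes. The 337 genes of the highest class had a median log2 ratio of IP to input of -0.70 and -0.69 in the queen pairs and of -0.78 and -0.84 in the worker pairs. The worker pairs lay below the queen pairs, with a median caste difference of 0.09 beside 0.03 over all genes. With quantile normalization that direction turned, to a class median of -0.14 beside 0.001 over all genes. With FPKM as deposited all genes shifted, and the class median of -0.07 stayed above the -0.12 of all genes. These genes were also more abundant in workers, with a median input difference of -0.43. With 2 pairs against 2, the smallest two-sided p of an exact permutation test is 0.333, so that test could not pass at 0.05, and the class was not tested in another way. GB43330, the most abundant model, was enriched by 2.48 log2 units in queens and 2.60 in workers, a caste difference of -0.12 ± 0.20 (SE), with a 95% interval of -0.56 to 0.32.

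By genomic span, the 190 models over 64 kb had the highest median enrichment, 0.66 in queens and 0.56 in workers. Their median caste difference was -0.01, with quartiles of -0.16 and 0.17. None of them was called and 2 had an unadjusted p under 0.05 in limma. The 4604 models of 1 to 4 kb were depleted in the median, by 0.23 log2 units in queens and 0.28 in workers, with a median caste difference of 0.05. The 1263 models under 1 kb, of 10167 genes tested, held 4 of the 7 called genes and 75 of the 159 with at least a 2-fold difference. Of those 4 genes, GB53813 had every L1 and L3 input listed at 0, and GB50446 both worker inputs. In this class the interval of the median gene reached 0.78 log2 units to either side, beside 0.59 over all genes. Models that overlap another, whose reads cannot be told apart without strand, were 2471 of the genes tested (24.3%) and 1 of the 7 called. None of the 7 lay next to another called gene.

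**Figure D4:**
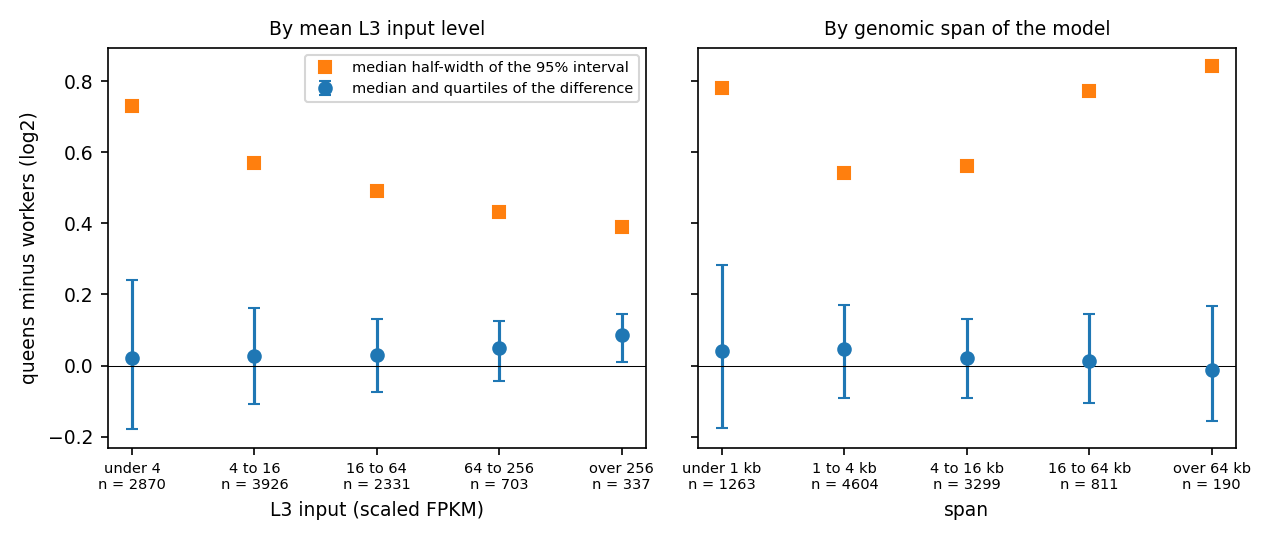
Caste difference in enrichment (queens minus workers, log2) by the mean L3 input level and by the genomic span of the gene model. Blue points are medians over genes with bars from the first to the third quartile, and orange squares are the median distance from the estimate to the end of its 95% interval. Medians lie between -0.01 and 0.09 in each class on the scaled values, though the 0.09 of the most abundant class becomes -0.14 with quantile normalization, and the intervals are narrowest in abundant genes.

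The L5 libraries, which the L3 comparison did not use, were fitted alone, with their own scaling factors and their own filter on low values. There 0 of 10182 genes (0%) differed in enrichment between the castes in limma, and 301 had an unadjusted p under 0.05. The median SE was 0.50 log2 units at L5 and 0.26 at L3. Of the 6 genes called at L3 that were tested at L5, 3 had the same sign there, GB44335, GB50446 and GB50473. GB55717 went from 1.45 at L3 to -0.77 ± 0.40 (SE) at L5. GB50849 went from -2.59 at L3 to 1.92 ± 1.36 (SE) at L5. Both of its L5 worker IP libraries were listed at 0, and its L5 worker inputs were 11.5 and 0 FPKM. The fitted value of GB50446 went from -2.13 to -1.17 ± 0.56, but all its L5 inputs were listed at 0. That L5 value is thus a difference in IP level alone. In GB44335 and GB41328, L5 queen input replicate 1 was the only L5 input above 0, so their L5 signs also rest on inputs listed at 0. Of the 166 genes tested at L5 whose L3 difference was positive with an unadjusted p under 0.05, 90 were positive at L5, with a median of 0.09. Of the 96 with a negative L3 difference, 57 were negative at L5, with a median of -0.10. Over all 9439 genes tested in both, the L5 median was 0.01, and 53.6% had the same sign.

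Directions depend on how the libraries were scaled. Without scaling, the median gene moved by -0.16 log2 units in the enrichment difference, by 0.62 in the input difference and by 0.47 in the IP difference. The split of calls was then 5125 higher and 439 lower in queens in input (1250 and 1363 when scaled), 3822 and 491 in IP (1378 and 1217 when scaled), and 1 and 1 for the enrichment difference. Enriched and depleted genes in queens were then 2007 and 4294. All differences above are thus relative to the typical gene. A caste difference in enrichment shared by all genes cannot be seen on this scale.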

How the data were processed

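Per the labels' protocols, polyadenylated RNA from larvae was fragmented, and both the m6A-antibody IP and the input went into NEBNext Ultra RNA libraries, a kit without strand marking. The authors deposited 1 FPKM value per gene model and library, per the file headers. The submitters' processing notes name HISAT2 2.1.0, and no source used here gives the program behind FPKM, the genome build or the gene annotation. Low FPKM values shared no common step, so whole reads were not recovered and depth is unknown.

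FPKM of the 12 L1 and L3 libraries were divided by median-of-ratios factors (7916 genes above 1 FPKM in every library). The 10167 genes whose scaled FPKM averaged 1 or more entered the test. Their log2(FPKM + 1) values went into limma 3.58.1 (R 4.3.3, group means, contrasts, eBayes with trend), with Benjamini-Hochberg adjustment over all of them and a threshold of 0.05. Log2 differences understate changes of low genes. With 2 libraries per group, 6 residual degrees of freedom were pooled over the 6 groups, 3 with the block. Figures were drawn with matplotlib 3.10.9.

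IP and input of the same number deviated together from their group means (r = 0.650 at L1, 0.640 in L3 queens and 0.152 in L3 workers, across genes). The labels do not explain the numbers, but as each r exceeded 0.1 they were taken as pairs, and the fit was repeated with the number within each kind of larva as a block.

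The rule for named genes took, within classes of called genes (all, input alike, opposite enrichment, at least 100 FPKM, at least 64 kb, next to another called gene), the 2 highest and 2 lowest differences, and the 2 highest and 2 lowest input differences. The classes for span and for called neighbours held none. Members, lists and classes were chosen with earlier results of these data known. Lists of genes by function could not be located without names. Alternatives were other pseudocounts, filters, scalings, weights, blocks, sets of libraries and each library left out.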

Additional observations from a re-analysis of the deposited data

How the results depend on the processing

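The number of genes whose enrichment differed between L3 castes, 7, stayed between 0 and 45 under the alternatives. It was 17 with a pseudocount of 5, 45 without a filter (33 higher, 12 lower, of 14086 genes), 4 with a minimum of 5 FPKM, 2 with FPKM as deposited, 4 with quantile normalization, 11 with the replicate block within kind, 0 with all 20 libraries, 3 with the 8 L3 libraries alone and 2 with the genes above 0 in all 8. It was 6 with a pseudocount of 0.1, 10 with a weight per library and 6 with a replicate block by number alone, and 3 to 9 when 1 library was left out. The block changed no other count by over 1.5 times, and differences within input or within IP cannot be fitted with the block within kind. Input calls between castes, 2613, were 5564 with FPKM as deposited, 1097 with all 20 libraries and 1358 to 2732 when 1 library was left out, with 1358 without L3 queen input replicate 1 and 1405 and 1387 without L3 worker input replicates 1 and 2. IP calls, 2595, were 4313, 1094 and 1305 to 2718, with 1305 without L3 queen IP replicate 1 and 1529 and 1344 without L3 worker IP replicates 1 and 2. Genes called in queens stayed between 4818 and 6087, and in workers between 5080 and 6373, when 1 library was left out. At L5 the count of 0 became 1 with a pseudocount of 0.1, 11 with all 20 libraries and 0 to 1 when 1 library was left out, with 1 without L5 worker input replicate 1. Differences that passed no test changed sign by more than 1 SE in GB54419 with quantile normalization (-0.50) and in GB53621 without L3 queen input replicate 1 (0.21, in a range of -1.08 to 0.21 when 1 library was left out). The fit of 20 pooled the noisier L5 libraries and also had other scaling factors and other genes kept. The cause of these changes was not tested. Of the 7 genes, all were called with a weight per library and without a filter, and 5 with either block. Only 4 of the 7 were called with a pseudocount of 0.1, with a pseudocount of 5 and with quantile normalization. With FPKM as deposited 2 were called, GB53813 and GB44335. With the 8 L3 libraries alone 2 were called, GB55717 and GB50446. With all 20 libraries 0 of the 6 tested were called.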

Other observations

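The caste difference of enrichment was also compared between instars, as L5 minus L3 in the fit of all 20 libraries, a test added after seeing the data. It passed for 0 of 10391 genes in limma, and 396 had an unadjusted p under 0.05. GB55717 had an estimate of -2.17 there (limma adjusted p = 0.182).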
